A study of Mus musculus with 11 samples.

Results

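The 8 genes described here belong to the tumor necrosis factor (TNF) family and were followed in tissue macrophages (macs) with and without the transcription factor ZEB2. They are the ligand genes Ltb, Tnf, Tnfsf8, Tnfsf9, Tnfsf12 and Tnfsf13b and the receptor genes Tnfrsf1a and Tnfrsf1b, 8 of the 27998 genes in the deposited tables. The genes were picked by name with their levels in these libraries already known, so their values are a description and none was tested. Macs were sorted from mouse brain (microglia), colon (CMs), liver (Kupffer cells, KCs), lung (alveolar macs, AMs) and spleen (SMs), and 1 single-cell RNA library per tissue and genotype was made on the 10x Genomics platform. The labels give the genotype Zeb2fl/fl for the 5 control libraries (WT) and Fcgr1-crexZeb2fl/fl for the 5 Zeb2KO libraries. Another library held KCs of Nr1h3fl/fl mice, also WT, which made 11 libraries in all. The mice were on a C57Bl/6 background, of mixed sex and aged 6 to 8 weeks. The Zeb2KO mice were compared with Zeb2fl/fl littermates, whereas the Nr1h3fl/fl mice belonged to another line. Every library thus came from mice with floxed alleles, of Zeb2 in 10 libraries and of Nr1h3 in 1. For liver and lung the study's methods name Clec4f-cre and Itgax-cre, where the labels name Fcgr1-cre, so the Cre of these Zeb2KO libraries is uncertain. Fcgr1-cre and Itgax-cre also act in other immune cells, and outside the brain the Zeb2KO libraries can hold macs that kept an intact allele.

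TNF family ligands are mostly trimers made on the cell surface and often cut free, and their receptors signal through TRAF adaptors and NF-κB or through death domains. TNF is the macrophage cytokine best known for starting inflammation. Lymphotoxin beta, the product of Ltb, holds lymphotoxin alpha on the surface of lymphocytes and engages the LTβ receptor in the development of lymphoid organs. ZEB2 is a zinc finger repressor that binds E-boxes of the letters CACCTG.

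Levels are given in CPM, the UMIs (counted RNA molecules) of a gene scaled by the UMIs of all macs kept in that library, with exact Poisson 95% intervals. Shares of cells with at least 1 UMI of a gene have exact binomial (Clopper-Pearson) 95% intervals. Both cover counting error only, and with 1 library per tissue and genotype no difference within a tissue has a replicate check. A gene was counted as higher or lower where the ratio of its levels, each plus 1 CPM, was at least 2-fold and the higher library held at least 20 CPM.

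The libraries held 3097 to 7703 barcodes and 11133411 to 47400786 UMIs, and 2830 to 6974 macs per library were kept. WT SMs had the lowest median depth (2170 UMIs per cell) and WT CMs the highest (9232), so shares of cells were also computed with every cell thinned to 1000 UMIs. Zeb2 transcripts were higher in the Zeb2KO library of all 5 tissues, by 1.22-fold in SMs to 3.67-fold in microglia. The counts come from the 3′ end of the transcripts, outside the floxed part of Zeb2, so they do not check the deletion. Zeb2KO AMs stood apart in neutrophil genes, which summed to 23556 CPM against 23.0 in WT. Nearly all of this sum came from S100a8 (14194 CPM) and S100a9 (9361 CPM), while the granule genes Ngp and Camp were at 0. In Zeb2KO AMs monocyte markers (20707 CPM against 5769 in WT) and macrophage markers (22547 against 12564) were higher too. The 6 monocyte markers were Ly6c2, Ccr2, Plac8, Chil3, F13a1 and Vcan, and their sum was not split by gene. WT AMs already held far more of this sum than any library outside the lung (at most 660 CPM), so it does not mark monocytes alone. The part of all these genes in the AM results was not tested. The median log2 ratio over all genes considered lay between -0.09 and 0.08 in every comparison but the AMs, where it was -0.31.

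Ltb and Tnf lie side by side on mouse chromosome 17. Their promoters are shown because Ltb was higher in all 5 Zeb2KO libraries whereas its neighbor Tnf was not. In the GRCm38/mm10 build and GENCODE M21, Ltb spans chr17:35194439-35196320 on the plus strand and Tnf spans chr17:35199381-35202007 on the minus strand. RefSeq (GRCm38.p6) gave a promoter window from 250 bases before to 50 bases after the start for 6 of the 8 genes. The 250 bases before the start are printed 5′ to 3′ on the strand of the gene, with capitals for matches to the E-box letters CACCTG or to a κB-like motif (GGG and CC with 5 bases of any kind between them), searched on both strands.
Ltb chr17:35194257-35194506 (+): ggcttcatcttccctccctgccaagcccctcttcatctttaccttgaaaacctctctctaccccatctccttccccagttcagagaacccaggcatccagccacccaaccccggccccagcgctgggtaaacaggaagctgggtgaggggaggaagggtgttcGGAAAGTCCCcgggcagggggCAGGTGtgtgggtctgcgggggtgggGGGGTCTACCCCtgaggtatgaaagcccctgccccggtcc
Tnf chr17:35202008-35202257 (−): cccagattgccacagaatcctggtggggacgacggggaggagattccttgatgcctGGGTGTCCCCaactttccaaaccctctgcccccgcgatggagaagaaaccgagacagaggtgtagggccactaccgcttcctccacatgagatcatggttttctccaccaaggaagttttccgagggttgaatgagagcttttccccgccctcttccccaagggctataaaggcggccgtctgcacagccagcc
The Ltb window held 1 E-box match, on the minus strand and beginning at position -66, and 5 κB-like matches, 4 of which overlapped one another from position -40 to -38. The Tnf window held no E-box match and 3 κB-like matches, the pair at position -194 being 1 stretch read on both strands and the last lying at position 30, after the printed bases. Among the windows not printed, that of Tnfrsf1b held 1 E-box match, at position -132, and 3 κB-like matches. Tnfrsf1b passed the 2-fold rule in no tissue. The Tnfrsf1a window held 1 κB-like match and no E-box match, and those of Tnfsf8 and Tnfsf13b held neither motif. Over 27025 promoters of the same length, 20.03% held the E-box letters, 50.4% the κB-like letters and 10.7% both. GENCODE M21 places the start of Ltb within the printed stretch, just before the E-box match. By that annotation the E-box match and the 4 overlapping κB-like matches lie after the start, and the remaining κB-like match lies before it. These matches are a description of the letters and do not show binding.

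In Zeb2KO macs Ltb was higher than in WT in each of the 5 tissues, by 5.35-fold in SMs to 29.5-fold in AMs as ratios of CPM. The AM ratio rests on 16 WT UMIs, and with the pseudocount of 1 CPM the CMs had the largest log2 ratio, 3.98 against 3.52 in AMs. In microglia Ltb stood at 20.8 CPM (95% interval 18.3–23.5) in WT and at 128 CPM (123–134) in Zeb2KO. Among CMs the level was 2.12 CPM (1.71–2.60) in WT and 48.1 CPM (45.9–50.4) in Zeb2KO. Within each tissue the WT and Zeb2KO intervals did not overlap.

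KCs held 1.66 CPM of Ltb (1.19–2.26) in WT and 23.4 CPM (21.5–25.3) in Zeb2KO. The Nr1h3fl/fl WT KCs held 0.607 CPM (0.303–1.09), below the Zeb2fl/fl WT KCs and 2.73-fold lower than them (1.38–5.91). Both WT KC libraries thus lay far below the Zeb2KO KCs, and the gap between them gives the only measure of how far 2 WT libraries of a tissue differed, although line and library cannot be told apart in it. With the Nr1h3fl/fl library as the control, the log2 ratio of Ltb in KCs was 3.92 instead of 3.19. In AMs Ltb was at 0.583 CPM (0.333–0.947) in WT, from 16 UMIs, and at 17.2 CPM (15.9–18.6) in Zeb2KO. SMs held 12.3 CPM (9.88–15.1) in WT and 65.6 CPM (60.4–71.1) in Zeb2KO. In the order of the levels, microglia were highest and AMs lowest in both genotypes, while CMs and KCs of WT did not differ beyond their intervals. The study's methods name a NextSeq sequencer for KCs and AMs and a HiSeq for microglia, SMs and CMs, with different Cell Ranger versions. Between these 2 sets, tissue and sequencing cannot be told apart.

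**Figure D1:**
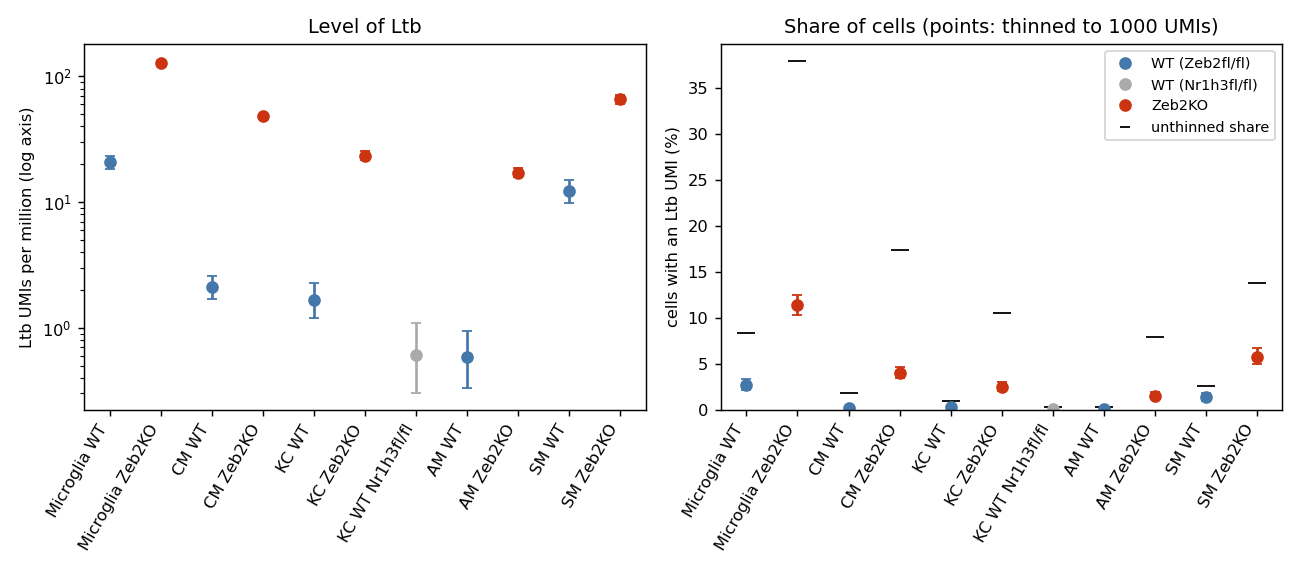
Left, Ltb CPM in the macs of each of the 11 libraries on a log axis, with exact Poisson 95% intervals; right, the share of macs with an Ltb UMI in percent, as points after thinning to 1000 UMIs with exact binomial 95% intervals and as dashes unthinned. The Zeb2KO library lay above WT in all 5 tissues in both panels, from 17.2 CPM in AMs to 128 in microglia.

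The ratio of Ltb in Zeb2KO over WT was 29.5-fold (18.0–51.9) in AMs, 22.7-fold (18.4–28.3) in CMs, 14.1-fold (10.2–19.9) in KCs, 6.17-fold (5.42–7.06) in microglia and 5.35-fold (4.28–6.74) in SMs. The rule counted it as higher in 4 tissues, since the AM level fell short of 20 CPM. With a floor of 5 CPM Ltb was 1 of 6 genes in the whole table counted as higher in all 5 tissues, and at 20 CPM it was 1 of 10 genes counted as higher in exactly 4, with 1 other gene higher in 5. These gene counts describe how many others moved likewise, since Ltb was chosen for its pattern.

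More cells held an Ltb UMI in every Zeb2KO library. Of microglia, 8.34% of WT cells and 37.9% of Zeb2KO cells held one. Among CMs the shares were 1.75% and 17.4%, among SMs 2.53% and 13.8%, among KCs 0.970% and 10.6%, and among AMs 0.229% and 7.87%. At 1000 UMIs per cell the same shares were 2.65% and 11.3% for microglia, 0.115% and 3.97% for CMs, 1.31% and 5.77% for SMs, 0.224% and 2.49% for KCs, and 0.100% and 1.52% for AMs. Thinning left out 260 WT SMs, 8.66% of that library, and no other cell. In every library but the Zeb2KO CMs, where 328 of 670 did, most positive cells carried a single UMI. Cells with at least 3 made up 7.15% of Zeb2KO microglia and 5.71% of Zeb2KO CMs.

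B cells are the main source of Ltb that a spleen or liver sort could carry, and the B cells set aside from these libraries held far more of it than macs. B cells of the KC libraries held 425 CPM in WT and 440 in Zeb2KO, and those of the SM libraries held 341 and 365. In the macs kept, the B cell gene Cd79a was at most 3.30 CPM outside the spleen, whereas WT SMs held 42.1 and Zeb2KO SMs 32.0. Summed over the 9 of 12 B cell markers in the files, the macs held 161 CPM in WT SMs and 105 in Zeb2KO SMs, 34.9 and 43.5 in KCs, 43.1 and 7.38 in CMs, 58.4 and 24.2 in microglia, and 0.619 and 0.644 in AMs. The B cell markers were thus not higher in Zeb2KO than in WT in any tissue but the KCs and, by a small amount, the AMs. The T cell markers summed to 115 and 118 CPM in CMs and 56.4 and 78.5 in SMs, and to at most 12.9 elsewhere. Of them, Cd3d, Cd3e, Cd3g and Lck each stood at no more than 0.536 CPM in CMs and 2.56 in SMs. Most of these CM and SM sums thus came from the other listed genes in the files, Cd4, Cd8a and Bcl11b, and so do not measure T cells well. With cells left out that held a UMI of the strict lymphocyte genes, an alternative chosen after seeing the data, the log2 ratio of Ltb was 2.71 in SMs, 3.19 in KCs and 3.99 in CMs. Leaving out every cell with a UMI of any of the 31 lymphocyte markers removed 60.2% to 92.6% of a library and gave 2.45 in SMs, 2.97 in KCs, 5.43 in CMs, 2.38 in microglia and 3.27 in AMs. With no cluster of other cell types left out, it was 0.37 in SMs and 1.09 in KCs.

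Cells that should lack Ltb were set beside the macs as a measure of free RNA. They did not give a clean background, since they carried macrophage markers as well. These markers summed to 7562 CPM in WT and 5294 in Zeb2KO erythroid cells (11108 and 9698 in SMs), to 23385 and 18911 in liver endothelial cells (37837 and 29809 in KCs), and to 9493 and 9286 in colon fibroblasts (43473 and 37937 in CMs). Colon fibroblasts of the WT library held an Ltb UMI in 0 of 136 cells (upper limit 2.68%, median 8674.5 UMIs), and those of the Zeb2KO library in 5.38% of 130 cells (2.19–10.8, median 7341.5 UMIs). Erythroid cells of the spleen held one in 5.42% of WT cells (2.51–10.0, median 2603 UMIs) and in 6.67% of Zeb2KO cells (2.20–14.9, median 4875 UMIs). The 13.8% of Zeb2KO SMs lay inside the interval of the deeper Zeb2KO erythroid cells, and the 2.53% of WT SMs lay near the lower end of the WT one. Per UMI the Zeb2KO erythroid cells held 27.4 CPM (13.7–49.1), below the 65.6 CPM of Zeb2KO SMs with separate intervals, and the WT erythroid cells held 17.2 CPM (7.88–32.7), overlapping with WT SMs. Liver endothelial cells held one in 1.89% of WT and 10.8% of Zeb2KO cells, at median depths of 6950 and 7025 UMIs, and stood at 8.08 CPM (2.97–17.6) and 24.6 CPM (19.2–31.04), so KCs did not stand above them by either measure. The share in Zeb2KO CMs as a whole, 17.4%, lay above the interval of the fibroblasts, and the 1.75% of WT CMs lay under their upper limit. No cell type that should lack Ltb was set aside in number from the microglia and AM libraries.

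Within the Zeb2KO libraries of CMs, KCs and AMs, Ltb was concentrated in clusters that WT cells hardly entered. This was less so in SMs and not beyond the intervals in microglia. Cells were clustered per tissue without the TNF family genes, and a cluster was set apart where the share of Zeb2KO cells was at least 9 times that of WT cells. In CMs the clusters apart held 22.8% of the Zeb2KO cells and 86.5% of their Ltb UMIs. Ltb there stood at 184 CPM (175–193), against 8.40 (7.37–9.55) in the Zeb2KO cells of shared clusters and 1.81 (1.43–2.27) in WT cells of the same shared clusters. In KCs the clusters apart held 64.1% of Zeb2KO cells and 90.6% of their Ltb UMIs, at 35.5 CPM (32.6–38.7) against 5.40 (4.07–7.03) in shared clusters. AMs had 18.6 CPM (17.2–20.1) apart and 3.90 (2.13–6.54) in shared clusters. SMs differed less, with 69.2 CPM (63.5–75.4) apart and 45.1 (34.5–57.9) in shared clusters, and their shared clusters were also high in lymphocyte genes. Of Zeb2KO microglia, 95.1% lay in clusters apart, with 129 CPM (123–135) there and 113 (92.3–138) in the rest.

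A single cluster per tissue carried most Ltb in CMs, KCs, AMs and SMs. In Zeb2KO CMs it was a cluster of 757 cells led by Hp, Ms4a1, Mmp8 and Ltb itself, which held 85.7% of the Ltb UMIs at 210 CPM (199–220) and an Ltb UMI in 65.1% of its cells. In SMs a cluster of 686 cells led by Il1f9, Skint3, Dpep2 and Cd209b held 75.9% of the UMIs at 190 CPM (173–208). In KCs a cluster of 1897 cells led by Siglecf, Il1r2, Pglyrp1 and Ms4a1 held 87.4% of the UMIs at 43.1 CPM (39.5–47.0). In AMs a cluster of 3236 cells led by Cd177, Ceacam10, Krt8, Stfa1 and S100a9 held 87.4% of the UMIs at 24.7 CPM (22.7–26.9). Its monocyte markers, again a sum not split by gene, stood at 26528 CPM against 11699 in the other Zeb2KO AMs. Ms4a1, which encodes the B cell protein CD20, thus led the KC and CM clusters, while Cd79a stayed low in those libraries as given above. The B cell markers summed to 10.4 CPM in the CM cluster against 6.65 in the other Zeb2KO CMs. In the KC cluster they summed to 36.9 CPM against 49.5 in the other Zeb2KO KCs. Among the macs of Zeb2KO CMs the cluster of 757 cells was low in macrophage markers, which summed to 16971 CPM against 43073 in the other macs. Of the dendritic cell markers it held more Ccr7 (52.0 CPM against 1.61), Cd209a (34.3 against 3.29) and Flt3 (14.4 against 0.617). Zbtb46 (4.20 against 3.26), Xcr1 (2.24 against 0.617) and Clec9a (1.40 against 0.0343) were higher too. Bst2 (192 against 423) and Siglech (2.10 against 13.7) were lower. The 8 markers together summed to 302 CPM against 446, and Bst2 made up most of both sums. In the SM cluster the same 8 summed to 347 CPM against 252, with most of the difference in Zbtb46 (106.6 CPM against 21.1), while Siglech stood at 8.43 against 1.497, Ccr7 at 9.69 against 8.23, Clec9a at 7.16 against 9.43, Xcr1 at 0.843 against 2.10 and Flt3 at 0.421 against 1.05. Its macrophage markers summed to 9465 CPM against 9781. Dendritic cells set aside from the Zeb2KO libraries held Ltb at 196 CPM (148–255) in spleen and 78.7 CPM (56.7–106) in liver. Over all macs the dendritic cell markers summed to 365 CPM in WT and 418 in Zeb2KO CMs, to 204 and 277 in SMs, to 724 and 655 in KCs, to 1526 and 1073 in microglia, and to 70.4 and 88.9 in AMs. Most of the sum in Zeb2KO microglia was Siglech, at 792 CPM in the cluster with most Ltb and 779 in the other macs. The sorts kept CD64+ F4/80+ cells in every tissue, a gate that would remove most dendritic cells, and the part of any that remained in the Ltb ratios was not tested. Gates for Clec4F+ in liver, for CD11c+ SiglecF+ in lung, and against Ly6C, Ly6G and SiglecF in colon and spleen were added to it. These clusters were drawn from the same cells, so the levels in them are a description.

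**Figure D2:**
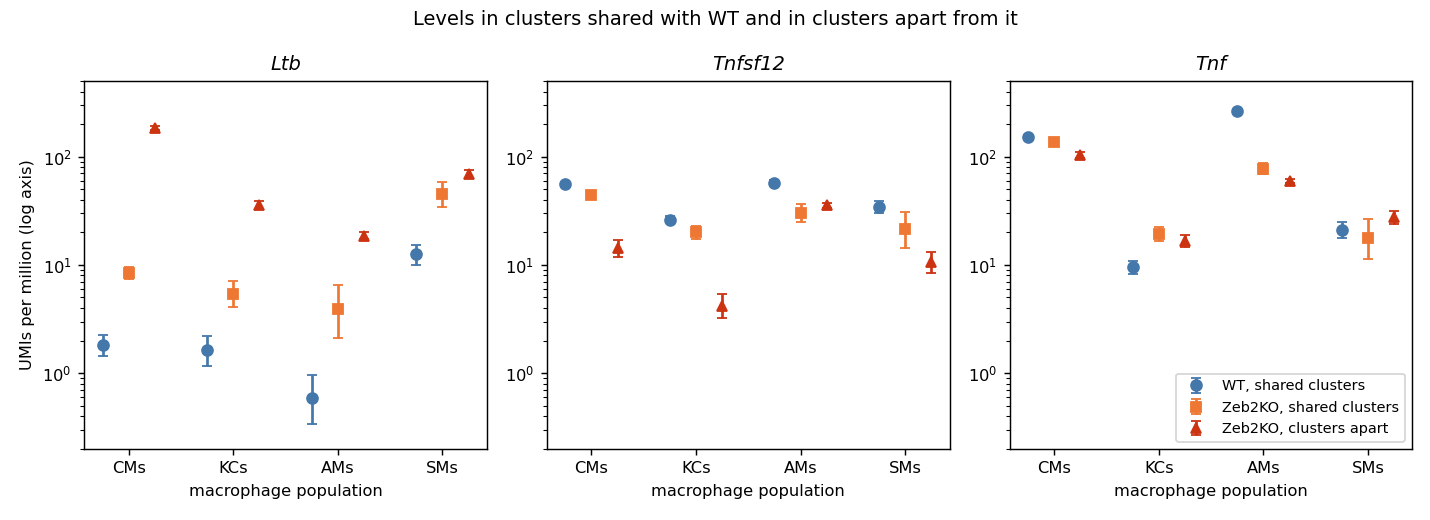
CPM (log axis) of Ltb, Tnfsf12 and Tnf in CMs, KCs, AMs and SMs for WT cells of shared clusters (circles), Zeb2KO cells of the same clusters (squares) and Zeb2KO cells of clusters apart (triangles), with exact Poisson 95% intervals. Ltb was highest in the clusters apart in all 4 populations, at 184 CPM in CMs, whereas Tnfsf12 was lowest there in CMs, KCs and SMs.

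The 5 genes whose levels over the 11 libraries were most like those of Ltb, among 8018 genes compared, were H2-Oa (Pearson r = 0.91), Vars (0.90), Siglecg (0.87), H13 (0.87) and Ttc19 (0.84). H2-Oa encodes a chain of a class II accessory molecule found in B cells, and Siglecg encodes an inhibitory lectin. The libraries share tissue and depth, so r is a description. The log2 ratio of H2-Oa was 4.12 in KCs, 3.16 in SMs, 2.34 in AMs, 2.23 in CMs and 0.90 in microglia. Siglecg had its highest log2 ratio in microglia, 3.78, and its lowest in AMs, 0.40. Of the 10 other genes within 50 kb of Ltb, looked at after their values were seen, Tnf in microglia was the one counted as higher in any tissue. Lst1 was lower in KCs, and Prrc2a and Tnf were lower in AMs. Lta, whose product pairs with lymphotoxin beta, stayed at or below 0.663 CPM in all 11 libraries.

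Tnf was higher in Zeb2KO microglia and lower in Zeb2KO AMs. In microglia it stood at 51.5 CPM (47.6–55.6) in WT and at 565 CPM (554–576) in Zeb2KO, a 10.98-fold ratio (10.1–11.9). In AMs it stood at 264 CPM (258–271) in WT and at 61.1 CPM (58.6–63.6) in Zeb2KO, 4.33-fold lower (4.13–4.54). The log2 ratio was 3.43 in microglia and -2.10 in AMs, or -1.82 in AMs with TMM scaling. The intervals of the 2 genotypes did not overlap in either tissue.

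CMs held a high Tnf level in both genotypes, 156 CPM (152–160) in WT and 130 CPM (126–133) in Zeb2KO. KCs held 9.54 CPM (8.35–10.9) in WT, 17.8 CPM (16.1–19.5) in Zeb2KO and 10.4 CPM (8.998–12.03) in the Nr1h3fl/fl library. SMs held 21.0 CPM (17.9–24.6) in WT and 26.2 CPM (23.0–29.7) in Zeb2KO, with overlapping intervals. None of these 3 tissues passed the 2-fold rule for Tnf, and the 2 WT KC libraries did not differ beyond their intervals.

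The share of cells with a Tnf UMI was 9.72% in WT and 55.9% in Zeb2KO microglia, and 39.5% in WT and 18.5% in Zeb2KO AMs. At 1000 UMIs per cell these shares were 3.32% and 27.6% in microglia and 17.9% and 4.54% in AMs, in the same directions. In CMs 50.1% and 45.1% of cells held one. The shares in KCs (4.48% and 7.99%) and in SMs (3.93% and 6.04%) were near those of liver endothelial cells (2.83% and 5.28%) and spleen erythroid cells (5.42% and 6.67%), at the depths given above. Per UMI, Zeb2KO KCs lay above the 7.37 CPM (4.56–11.3) of Zeb2KO endothelial cells, whereas WT KCs overlapped with the 4.04 CPM (0.833–11.8) of WT ones. SMs overlapped with erythroid cells in both genotypes, at 32.6 CPM (18.97–52.1) in WT and 12.5 CPM (4.05–29.1) in Zeb2KO.

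Among Zeb2KO microglia Tnf was highest in a cluster of 772 cells led by Nr4a2, Il1b, Spp1, Tnf and Csf1. It held 57.6% of the Tnf UMIs at 1219 CPM (1187–1251), and 80.7% of its cells held a Tnf UMI. Next came a cluster of 142 cells led by interferon-induced genes such as Ifit1 and Rsad2, at 752 CPM (693–815), and the remaining large clusters of Zeb2KO microglia stood at 423 CPM (408–439) and 93.8 CPM (85.3–103). Among WT AMs, a cluster of 1438 cells led by Ereg, Cxcl3, Tnf, Il6 and Egr1 held 56.7% of the Tnf UMIs at 704 CPM (683–726), while the largest WT cluster stood at 158 CPM (151–166). The largest cluster of Zeb2KO AMs stood at 41.4 CPM (38.8–44.2). Tnf was thus lower in the main Zeb2KO AM cluster than in the main WT cluster as well.

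Tnf is an early response gene that rises when tissue is dissociated, so 16 dissociation genes were measured beside it. They summed to 31794 CPM in WT and 24751 in Zeb2KO microglia, to 13193 and 13029 in CMs, to 11288 and 6593 in SMs, to 6734 and 6471 in AMs, and to 1983 and 3609 in KCs. In microglia 1 of the 16 (Nfkbiz) was higher and none was lower. In AMs 4 were higher and 1 (Egr1) was lower, in KCs 8 were higher, in SMs 6 were lower and in CMs none passed the rule. Between the WT KC libraries, 5 of the 15 considered were lower in the Nr1h3fl/fl library, where the genes summed to 1205 CPM. The summed level was lower in Zeb2KO microglia, where Tnf was higher, and nearly equal in AMs, where Tnf was lower. The sum does not show how single clusters differed. The microglia cluster led by Nr4a2 held 0.071% of the WT and 23.8% of the Zeb2KO cells. The AM cluster led by Ereg, with Egr1 and Nfkbiz of the 16 among its leading genes, held 20.6% of the WT and 0.223% of the Zeb2KO cells. The part of dissociation in the Tnf ratios was not tested.

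**Figure D3:**
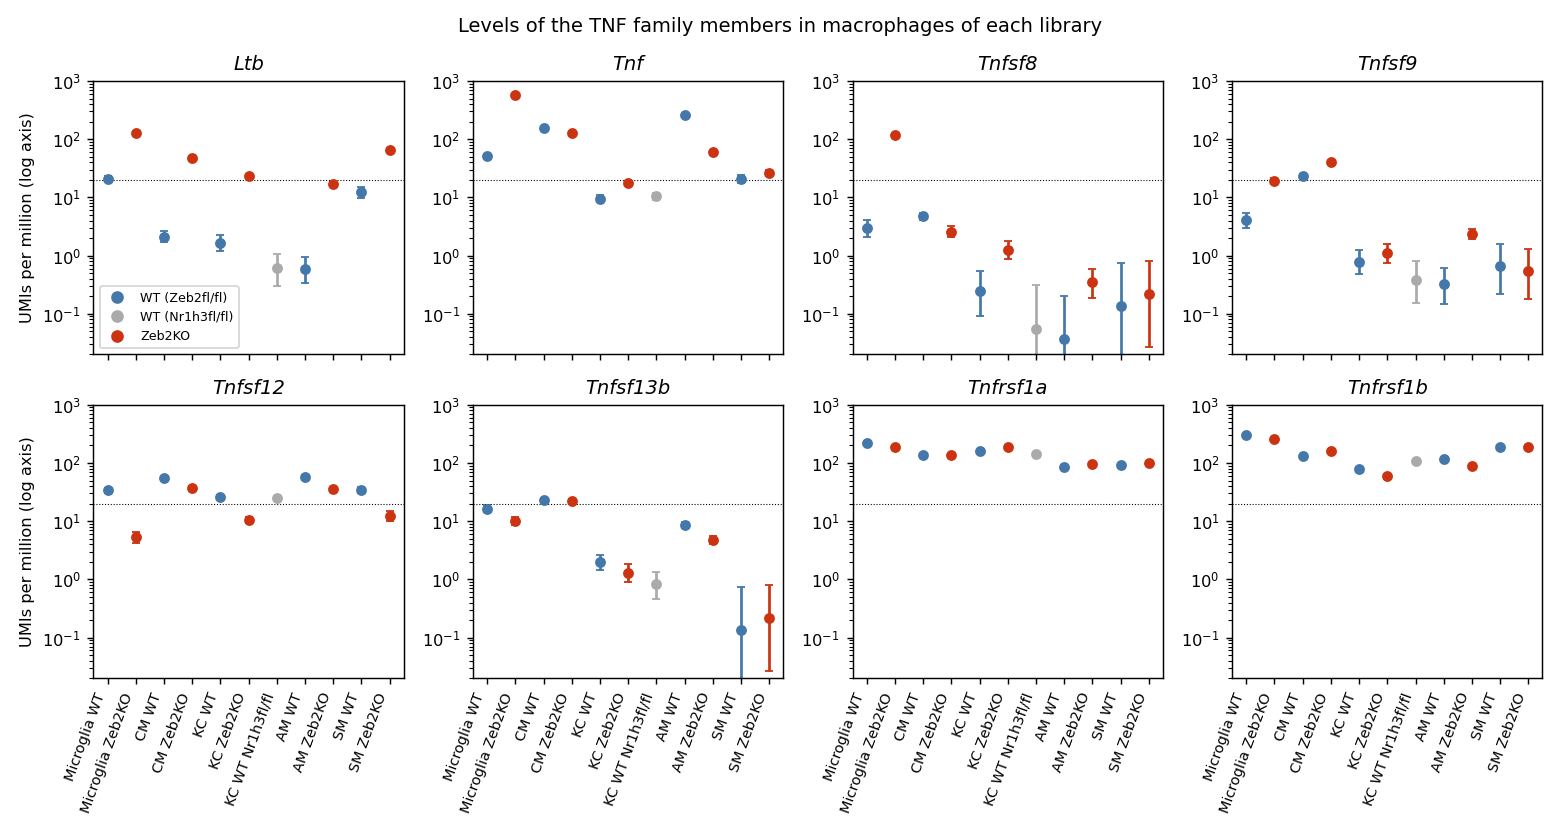
CPM (log axis) of each of the 8 genes in the macs of the 11 libraries, with exact Poisson 95% intervals, WT Zeb2fl/fl in blue, WT Nr1h3fl/fl in grey and Zeb2KO in red. The dotted line marks 20 CPM; both receptor genes lay above it in every library, while Tnfsf8 crossed it only in Zeb2KO microglia, at 119 CPM.

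Tnfsf8 encodes CD30 ligand, which engages CD30 on activated lymphocytes. It stood at 3.0 CPM (2.11–4.13) in WT and at 119 CPM (114–124) in Zeb2KO microglia, a 39.5-fold ratio (28.6–56.3). A Tnfsf8 UMI was present in 1.24% of WT and 37.1% of Zeb2KO microglia, or 0.389% and 10.5% at 1000 UMIs. All 4 large clusters of Zeb2KO microglia carried it, from 85.1 to 185 CPM. CMs held 4.80 CPM (4.17–5.50) in WT and 2.59 CPM (2.09–3.17) in Zeb2KO. In KCs, AMs and SMs the level was at most 1.27 CPM, and the AM and SM WT libraries and the Nr1h3fl/fl library held 1 UMI each. At this depth Tnfsf8 was barely detectable outside brain and colon.

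Tnfsf9 encodes 4-1BB ligand, a costimulator of T cells. It was higher in Zeb2KO microglia, at 19.5 CPM (17.4–21.7) against 4.05 (3.01–5.34) in WT, a 4.81-fold ratio (3.56–6.61) just under the floor of 20 CPM. CMs held 23.4 CPM (22.0–24.9) in WT and 40.5 CPM (38.4–42.6) in Zeb2KO, a 1.73-fold ratio that missed 2-fold. Both pairs of intervals were separate. In Zeb2KO CMs the clusters apart held 55.7% of the Tnfsf9 UMIs at 99.6 CPM (92.9–107), and Zeb2KO cells of shared clusters stood at 23.2 CPM (21.4–25.04), near the 21.3 CPM (19.9–22.7) of WT cells there. AMs held 0.328 CPM (0.150–0.623) in WT and 2.36 (1.89–2.91) in Zeb2KO, and KCs and SMs held at most 1.11 CPM. Just inside the floor stood Ltb in Zeb2KO KCs, at 23.4 CPM, and just outside it Tnfsf9 in Zeb2KO microglia.

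Tnfsf12 encodes TWEAK, a ligand of the receptor Fn14 in tissue repair, and it was lower in the Zeb2KO library of all 5 tissues. Microglia held 34.1 CPM (30.9–37.5) in WT and 5.26 CPM (4.22–6.47) in Zeb2KO, 6.48-fold lower (5.14–8.23). KCs held 26.1 CPM (24.1–28.3) in WT, 24.7 (22.4–27.1) in the Nr1h3fl/fl library and 10.6 (9.37–11.96) in Zeb2KO. SMs held 34.0 CPM (29.9–38.4) in WT and 12.3 (10.1–14.8) in Zeb2KO. These 3 tissues passed the rule, and the 2 WT KC libraries overlapped. With no cluster left out the KCs missed it, at a log2 ratio of -0.91.

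CMs held 55.3 CPM of Tnfsf12 (53.1–57.6) in WT and 37.7 (35.7–39.7) in Zeb2KO, and AMs held 58.1 (55.3–61.0) and 35.1 (33.2–37.1). Their ratios were 1.47-fold and 1.65-fold lower, under 2-fold though the intervals were separate. With TMM scaling the AM log2 ratio of Tnfsf12 was -0.44 instead of -0.71. In KCs the Zeb2KO cells of clusters apart stood at 4.20 CPM (3.23–5.37) and those of shared clusters at 20.04 (17.4–23.0), against 26.2 (24.2–28.3) in WT cells of shared clusters. CMs showed the same order, with 14.2 CPM (11.8–17.1) apart, 44.6 (42.1–47.1) in shared clusters and 55.6 (53.3–57.8) in WT. In AMs the clusters apart stood at 35.7 CPM (33.7–37.7) and shared clusters at 30.1 (24.7–36.3), so the 2 kinds of cluster overlapped there.

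Reads of Tnfsf12 may be shared with other genes. It overlaps the read-through gene Tnfsfm13 on its own strand and the antisense gene Tnfsf13os, and whether the counting used strand is not given in the sources used here. Tnfsfm13 stood at 1.14 CPM in WT and 4.90 in Zeb2KO microglia, and the sum of both genes was 3.46-fold lower in Zeb2KO. Summed in the same way, KCs were 1.74-fold lower, under 2-fold, and SMs were 2.39-fold lower. Tnfsf13os was higher in Zeb2KO CMs, at 38.0 CPM against 8.36, in Zeb2KO KCs, at 88.9 against 30.3, and in Zeb2KO SMs, at 33.7 against 16.2. It stood at 2.42 CPM in Zeb2KO and 0.243 in WT microglia, and at 7.40 and 12.8 in AMs. In spleen, 8.43% of WT and 5.33% of Zeb2KO erythroid cells held a Tnfsf12 UMI, close to the 7.96% and 3.60% of SMs. Liver endothelial cells held one in 27.4% of WT and 25.3% of Zeb2KO cells, against 13.6% and 5.86% of KCs, and stood at 52.5 CPM (37.3–71.8) and 40.7 CPM (33.6–48.8), above the KCs. Colon fibroblasts held one in 50.7% and 43.1% of cells, against 39.4% and 26.1% of CMs, at 89.6 CPM (73.9–108) and 68.6 CPM (53.7–86.4). Macs of these 3 tissues thus did not stand above these erythroid, endothelial and fibroblast cells in Tnfsf12. They did stand above some other cells set aside, such as spleen B cells, at 11.9 CPM (7.85–17.3) in WT and 4.21 (1.82–8.29) in Zeb2KO. The part of cells of other types and of free RNA in the Tnfsf12 ratios was not tested.

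Tnfsf13b encodes BAFF, the survival factor of B cells. It stood at 16.3 CPM (14.1–18.7) in WT and 10.1 (8.65–11.7) in Zeb2KO microglia, at 23.2 (21.8–24.7) and 22.3 (20.8–23.9) in CMs, and at 8.60 (7.54–9.77) and 4.80 (4.12–5.56) in AMs. No tissue reached 2-fold, and only the CM intervals of these 3 overlapped. Colon fibroblasts set aside from the CM libraries held more, 149 CPM in WT and 109 in Zeb2KO. KCs held 1.99 CPM in WT and 1.31 in Zeb2KO, and SMs held 1 UMI in WT and 2 in Zeb2KO. In Zeb2KO AMs, 48.6% of the Tnfsf13b UMIs lay in a cluster of 230 cells led by genes such as C1qa and H2-Eb1, at 47.3 CPM.

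The receptor genes were present in every library, and neither passed the 2-fold rule in any comparison. Tnfrsf1a, the receptor with a death domain, stood at 223 CPM in WT and 189 in Zeb2KO microglia, 162 and 191 in KCs, 137 and 138 in CMs, 90.7 and 101.2 in SMs, and 84.3 and 97.8 in AMs. Its log2 ratios ran from -0.23 to 0.24, and the Nr1h3fl/fl library stood at 143 CPM. Tnfrsf1b, the receptor without a death domain, stood at 299 and 255 CPM in microglia, 187 and 188 in SMs, 132 and 162 in CMs, 119 and 87.9 in AMs, and 79.7 and 60.8 in KCs. Its log2 ratios ran from -0.43 to 0.29 between genotypes, and the Nr1h3fl/fl KCs at 109 CPM differed from the other WT KCs by a log2 ratio of 0.45. With the Nr1h3fl/fl library as the control, the log2 ratio in KCs was -0.83 for Tnfrsf1b and 0.42 for Tnfrsf1a, so the size of both depended on the WT library. The scaling mattered as well. With TMM scaling the AM log2 ratios were 0.48 for Tnfrsf1a and -0.16 for Tnfrsf1b, and those of microglia were -0.14 and -0.13.

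**Figure D4:**
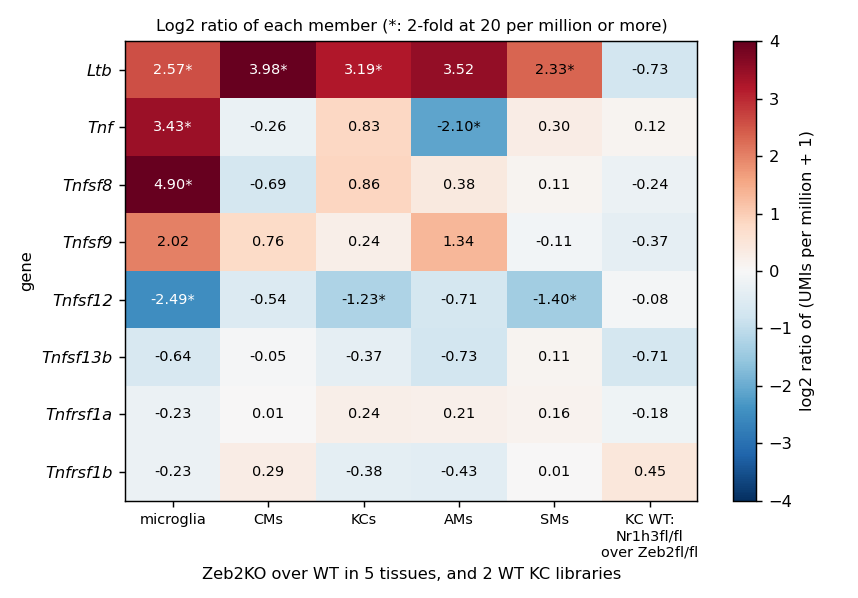
Log2 ratio of (CPM + 1) of the 8 genes for Zeb2KO over WT in 5 tissues and for Nr1h3fl/fl over Zeb2fl/fl WT KCs, with a star where the 2-fold rule at 20 CPM was passed. Ltb was positive and Tnfsf12 negative in all 5 tissues, Tnf was 3.43 in microglia and -2.10 in AMs, and the receptor genes stayed within 0.45 of 0.

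Counted over the 8 genes, 6 were at 20 CPM or more in either microglia library, of which 3 were higher (Ltb, Tnf and Tnfsf8) and 1 was lower (Tnfsf12). In CMs 1 of 7 was higher. In SMs 1 of 5 and in KCs 1 of 4 was higher, and 1 was lower in each, while in AMs 1 of 4 was lower. Between the WT KC libraries none of 3 passed. Over all genes considered, 4.27% were higher and 4.07% lower in microglia, 4.35% and 7.33% in AMs, 3.45% and 1.15% in KCs, 2.52% and 0.926% in SMs, 1.09% and 0.489% in CMs, and 0.505% and 0.866% between the WT KC libraries. Since the members were chosen on these contrasts, nothing is read from the comparison of their counts with these shares.

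Of the genes that pair with the members, Ltbr, Tnfrsf13b and Tnfrsf17 reached 20 CPM in a library, and the latter 2 passed the rule in at least 1 tissue. Ltbr, the receptor of the lymphotoxin heterotrimer, lay between 29.0 and 55.3 CPM in all 11 libraries and changed by less than 2-fold in each comparison. Tnfrsf13b encodes TACI, a receptor of BAFF, and was higher in Zeb2KO KCs, at 26.2 CPM (24.3–28.3) against 6.02 (5.08–7.08), and in Zeb2KO AMs, at 44.5 (42.4–46.7) against 15.4 (14.0–17.0). Tnfrsf17 encodes BCMA, another receptor of that ligand group, and was lower in Zeb2KO microglia, at 26.5 CPM (24.1–29.1) against 58.3 (54.1–62.7). Tnfrsf12a, which encodes Fn14, was too low for the rule in every tissue and was highest in WT microglia, at 19.4 CPM (17.0–22.0). Tnfrsf8, Tnfrsf9, Tnfrsf13c and Tnfrsf14, the receptors for CD30 ligand, 4-1BB ligand, BAFF and lymphotoxin alpha, stayed at or below 4.45 CPM in every library.

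The pathway list held 76 other genes, made up of 12 ligands, 26 receptors and 38 signalling genes. In microglia 35 of the 76 were considered, of which 2 were higher (Cd40 and Nfkbia) and 1 was lower (Tnfrsf17). Higher genes were 2 of 29 in KCs (Relt and Tnfrsf13b), 1 of 30 in CMs (Traf1), 1 of 30 in AMs (Tnfrsf13b) and none of 36 in SMs, with none lower in these 4 tissues. None of 25 passed between the WT KC libraries, and none of the 12 other ligands reached 20 CPM in any tissue. The list's median log2 ratio was 0.21 in CMs (all genes 0.05), 0.14 in microglia (-0.09), -0.06 in SMs (-0.02), 0.05 in KCs (0.02) and -0.38 in AMs (-0.31).

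Cd40, the costimulatory receptor of CD40 ligand, had the largest ratio of the list genes that reached 20 CPM. It stood at 0.568 CPM in WT and 54.2 in Zeb2KO microglia, a 95.6-fold ratio (46.2–238). Nfkbia, the inhibitor that NF-κB itself induces, stood at 1031 CPM in WT and 2603 in Zeb2KO microglia, a 2.52-fold ratio (2.48–2.57). Traf1, an adaptor that TNF receptors recruit, stood at 24.2 CPM in WT and 57.0 in Zeb2KO CMs, a 2.35-fold ratio (2.18–2.54). Relt, an orphan receptor of the family, stood at 10.3 CPM in WT and 24.7 in Zeb2KO KCs, a 2.405-fold ratio (2.07–2.80). All 4 intervals lay above 2-fold. Cd40 in CMs, KCs and the Nr1h3fl/fl KCs changed by less than 2-fold from about 30 CPM.

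**Figure D5:**
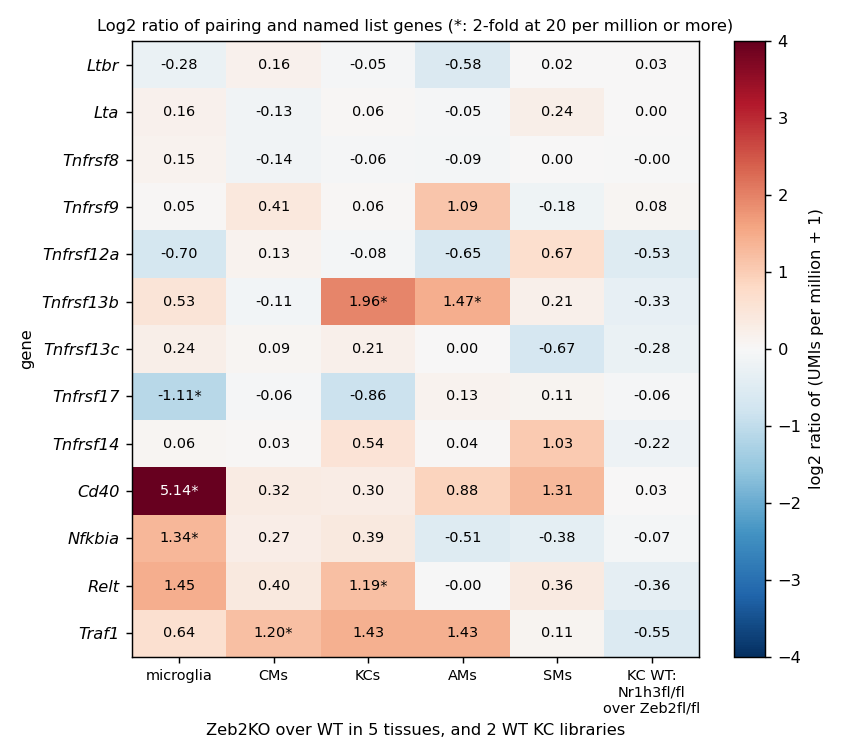
Log2 ratio of (CPM + 1) of the genes that pair with the members and of the list genes that passed the 2-fold rule, for the same 6 comparisons, with a star where it was passed. Cd40 in microglia stood at 5.14, Tnfrsf13b at 1.96 in KCs and 1.47 in AMs, and Ltbr lay between -0.58 and 0.16.

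The pathway list alone was tested for a change shared by all tissues, with the 5 pairs of summed libraries as samples and tissue as a block. edgeR's quasi-likelihood test with Benjamini-Hochberg adjustment over 13957 genes called 0 genes higher and 0 genes lower in the whole table (0%), so none of the 64 list genes tested was called. At an unadjusted p below 0.05 there were 11 list genes (17.2%), all higher in Zeb2KO, beside 1587 of all genes tested (11.4%), and the smallest adjusted p from edgeR was 0.265 (Tnfrsf10b). DESeq2 called 368 of the same genes (2.64%), among them 2 of the list, Traf1 and Tnfrsf18, the latter named after its values were seen. The list's median log2 fold change was 0.14, beside -0.01 over all genes tested.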

How the data were processed

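The authors deposited tables of UMI counts per gene and cell, raw and not normalized, made with Cell Ranger on the mm10 build per the labels. There was 1 table per library, and groups were taken from the labels. Barcodes were filtered per library at 3 median absolute deviations of depth, genes detected and mitochondrial share, clustered per tissue with scanpy (version 1.11.5) and leidenalg (0.10.2) without the TNF family genes, and clusters past limits on markers of other cell types were left out (0 to 27.6% of a library). The limits for leaving out clusters were changed after the clusters had been seen. A liver cluster of 257 cells led by genes such as Adgrf5 and Kdr, an endothelial receptor gene, fell short of them and was kept. Scrublet, as implemented in scanpy, called at most 0.0655% of cells, so it did not work here and no doublets were removed. Libraries shared at most 76 barcodes.

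UMI counts were summed per library and given as CPM with a pseudocount of 1. Members and gene lists (TNF ligands, receptors and signalling genes, dissociation genes, cell markers) were chosen with earlier results of these data known. List genes were named where they passed the 2-fold rule among the 3 largest ratios of a comparison or in at least 2 tissues, together with the genes that pair with a member, Zeb2, and the 5 genes most like Ltb by Pearson r of log2(CPM + 1). The pathway list was fitted with edgeR (4.0.16) in R (4.3.3) on all genes, with DESeq2 (1.42.0) as the alternative. Further alternatives were TMM scaling, pseudocounts of 0.5 and 5, floors of 5 and 50 CPM or none, other sets of cells, and thinning to 1000 or 2000 UMIs. Of the fits, only that of edgeR was run on simulated counts, with changes equal in all 5 tissues. It therefore does not show how the fit handles shifts that differ by tissue. Depth per library and its counting intervals stand with the results.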

Additional observations from a re-analysis of the deposited data

Results flagged for a closer look

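Tnf stood out because its ratio went opposite ways in 2 tissues. The log2 ratio of Zeb2KO over WT was 3.43 in microglia and -2.10 in AMs, a difference of 5.53. With 1 library per tissue and genotype the difference itself was not tested.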

How the results depend on the processing

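Alternative counts were of members and list genes past the 2-fold rule, or of list genes called by edgeR or DESeq2. They stayed within 1.5 times in 155 cases and moved further in 25. No ratio past the rule turned its direction. With TMM factors the pathway list had 5 genes in microglia and 2 in AMs. With a pseudocount of 5 CPM, KCs had 1 member and 1 list gene. With all barcodes, or with no cluster left out, KCs had 1 member and SMs had 1. A floor of 5 CPM gave 7 list genes in microglia, 5 in AMs, 4 in KCs and 2 in SMs, while AMs had 2 members. A floor of 50 gave 0 members in CMs and KCs and 1 in SMs, and 0 list genes in KCs and AMs. Without a floor the list had 9 genes in microglia and AMs, 6 in KCs and SMs and 2 in CMs, and AMs had 3 members. These floors act on genes near them by construction, and the cause of the other moves was not tested. DESeq2 called 2 list genes where edgeR called 0, and leaving out any 1 tissue pair left 0 called by edgeR. Of the log2 ratios of single members, 488 stayed within their counting intervals and 48 did not. Without the liver cluster led by endothelial genes, an alternative chosen after seeing the data, the KC log2 ratios were 3.18 for Ltb and -1.26 for Tnfsf12, on the same side of the rule. Leaving out cells with any lymphocyte marker, most cells of every library, took 15 of these ratios past their intervals, Ltb in CMs to 5.43 among them. With the Nr1h3fl/fl KCs as control 4 of 8 KC ratios moved, to 3.92 for Ltb, -0.83 for Tnfrsf1b, 0.42 for Tnfrsf1a and 0.34 for Tnfsf13b, against -0.37 with the Zeb2fl/fl control. Thinned shares were lower than unthinned ones by construction. With no cluster left out the log2 ratio was -0.91 for Tnfsf12 in KCs and 0.37 for Ltb in SMs. No paired analysis was possible because each tissue and genotype had 1 library, beyond the fit over 5 tissue pairs with tissue as a block.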
